A study of Homo sapiens with 6 samples.

Results

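Small nucleolar RNA (snoRNA) host genes were compared between HK-2 cells treated with oxidized low-density lipoprotein (OX-LDL) and untreated HK-2 cells. The host genes were taken by name from the deposited gene table, as every gene named SNHG followed by a number, together with GAS5, ZFAS1, EPB41L4A-AS1 and DANCR. This gave 29 of the 58825 genes in the table, and 26 of them had the mean of at least 0.1 FPKM that was required for testing, as did 19510 genes in all. FPKM counts fragments per kilobase of transcript and is scaled to the size of the library. HK-2 is an established, immortalized line of human kidney tubular epithelial cells. Poly(A) RNA was sequenced from 3 samples labelled as untreated (Control) and from 3 samples that received OX-LDL at 25 μg/ml over 48 h, and the labels name no genetic change and give no time for the Control samples. The study's methods describe serum starvation before OX-LDL was added. The comparison asks whether the host transcripts move together when OX-LDL is added.

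snoRNAs guide the chemical modification and processing of ribosomal RNA, box C/D snoRNAs (SNORD) directing ribose methylation and box H/ACA snoRNAs (SNORA) directing pseudouridylation, while the related scaRNAs (SCARNA) act on spliceosomal RNAs in Cajal bodies. Most human snoRNAs are cut from introns of a host gene. In non-coding hosts the spliced exons have little coding capacity, and several of these transcripts are bound by ribosomes and degraded by nonsense-mediated decay (NMD), so their level depends on decay as well as on transcription. Many snoRNA hosts and nearly all ribosomal protein genes begin with a 5′ terminal oligopyrimidine (TOP) tract, a C followed by further C or T bases at the first transcribed position, which ties translation to growth signals.

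The transcript starts are shown first because several hosts that fell and the host that rose share this feature. A start was counted when a C was followed directly by at least 4 bases that were each C or T. In release 29 of GENCODE, 39 of the 282 transcripts of the 29 host genes (13.8%) began in this way, against 2.41% of all 206694 transcripts and 19.9% of the 851 transcripts of the cytosolic ribosomal protein genes. At least 1 such transcript was annotated for 15 of the 29 host genes (51.7%), for 33.8% of the protein-coding snoRNA hosts and for 13.0% of the tested genes. These were GAS5, SNHG11, ZFAS1, SNHG5 and SNHG6 of the 7 genes that were lower in OX-LDL, SNHG16, which was higher, and 9 of the 18 tested genes with no call. Only some transcripts of a gene had the run, 6 of 29 for GAS5 and 2 of 8 for SNHG16, and it was not at the RefSeq start of GAS5, SNHG16 or SNHG29. The first 20 bases of such transcripts are given below, 5′ to 3′, with the pyrimidine run in capitals. GAS5 lies at chr1:173867970-173867989 on the minus strand, SNHG16 at chr17:76557769-76557788 on the plus strand, SNHG19 at chr16:2155339-2155358 on the minus strand, SNHG29 at chr17:16439037-16439056 on the plus strand, SNHG5 at chr6:85678714-85678733 on the minus strand and ZFAS1 at chr20:49278642-49278661 on the plus strand (GRCh38).
GAS5: CTTTTCgaggtaggagtcga
SNHG16: CTTTTCgaggtcggccgcgt
SNHG19: CTTTTCggggtcgagtccga
SNHG29: CTTTTCattcccgttgttat
SNHG5: CTTTTacgtcggccttcgcg
ZFAS1: CTTTCgcgtctgcggtgccc

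The first 11 bases of GAS5 and SNHG16 were identical, although GAS5 was lower and SNHG16 higher in OX-LDL. No transcript of any other gene in GENCODE began with these 11 bases, which opened 8 transcripts of these 2 genes.

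RefSeq promoter windows were at hand for 25 of the host genes. A TATA box, searched as TATAA on the transcribed strand between 45 and 15 bases before the RefSeq start, was present in 6 of the 25 windows (24.0%) and in 4.09% of all 35116 windows. The pyrimidine run at the RefSeq start was likewise present in 6 of the 25 windows and in 4.07% of all windows. Both were present in 4 windows, those of SNHG5, ZFAS1, SNHG19 and SNHG12, and in 0.094% of all windows. The windows below run from 40 bases before the start to 20 bases after it, with TATAA and the pyrimidine run in capitals (GRCh38.p14). They show 3 hosts that were lower in OX-LDL (SNHG5, ZFAS1 and SNHG7, the last with TATAA only) beside SNHG19 and SNHG12, which passed no test. They lie at chr6:85678714-85678773 (minus strand) for SNHG5, chr20:49278602-49278661 (plus strand) for ZFAS1, chr9:136728165-136728224 (minus strand) for SNHG7, chr16:2155339-2155398 (minus strand) for SNHG19 and chr1:28581854-28581913 (minus strand) for SNHG12.
SNHG5: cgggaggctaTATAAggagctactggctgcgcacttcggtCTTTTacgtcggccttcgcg
ZFAS1: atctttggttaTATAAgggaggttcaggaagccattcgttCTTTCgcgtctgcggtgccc
SNHG7: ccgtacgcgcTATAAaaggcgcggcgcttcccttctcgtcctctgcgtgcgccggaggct
SNHG19: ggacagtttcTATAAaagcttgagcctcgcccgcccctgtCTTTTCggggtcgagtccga
SNHG12: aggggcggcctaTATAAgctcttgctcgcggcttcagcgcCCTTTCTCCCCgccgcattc

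The 6 libraries held 62561347 to 76797607 estimated counts, about 4 of which came from 1 read pair, and mitochondrial genes took 5.25% to 5.69% of them. Pairs of libraries within a group differed by more than sampling noise. The labelled cell type was checked against 15 proximal tubule and epithelial markers. KRT8, KRT18, KRT19, EPCAM, CDH2, PAX8, MIOX and GGT1 had group means between 5.47 and 65.4 FPKM, SLC5A2 and CDH1 were below 0.3 FPKM in both group means, ANPEP, AQP1, CUBN and SLC34A1 were below 0.1 FPKM in both group means, and LRP2 was listed at 0 counts in all libraries. Of these markers, KRT8, KRT19 and CDH2 rose and PAX8 and MIOX fell. For other cell types, PTPRC, CD3E and the endothelial markers PECAM1, VWF, KDR and CDH5 were below 0.1 FPKM in both group means, as were the fibroblast markers COL1A2, PDGFRA, PDGFRB and DCN. CD14 was at 0.269 FPKM in Control and 0.260 in OX-LDL (adjusted p = 0.98, edgeR), and the fibroblast marker COL1A1 was at 0.573 and 0.813 FPKM (adjusted p = 0.148, edgeR). CD68, which marks macrophages and other cells rich in lysosomes, was at 5.21 FPKM in Control and 10.8 in OX-LDL (adjusted p = 0.0858, edgeR), and the part of these markers in the results was not tested.

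The host transcripts did not move as a block. By edgeR's quasi-likelihood test with Benjamini-Hochberg adjustment over all tested genes, 7 of the 26 host genes were lower in OX-LDL at an adjusted p under 0.05, where 7.42% of all tested genes were lower. The host gene SNHG16 was higher, where 7.91% of all tested genes were higher, and 18 had no call. In either direction 8 of 26 were called, against 15.3% of all tested genes and 4.34% of the 6383 other tested genes with no protein-coding transcript. The share over all genes depends on the minimum level. With a minimum of 1 FPKM, 3152 of 12259 genes were called, beside 2 host genes higher and 7 lower. SNHG9, SNHG20, SNHG21, SNHG25 and SNHG26 were under that minimum and were not tested there. The median log2 fold change of the 26 genes was -0.01, with 13 values above 0 and 13 below, and the median of all tested genes was -0.0043. In these bulk samples, fewer cells of a type and less RNA per cell cannot be told apart.

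**Figure D1:**
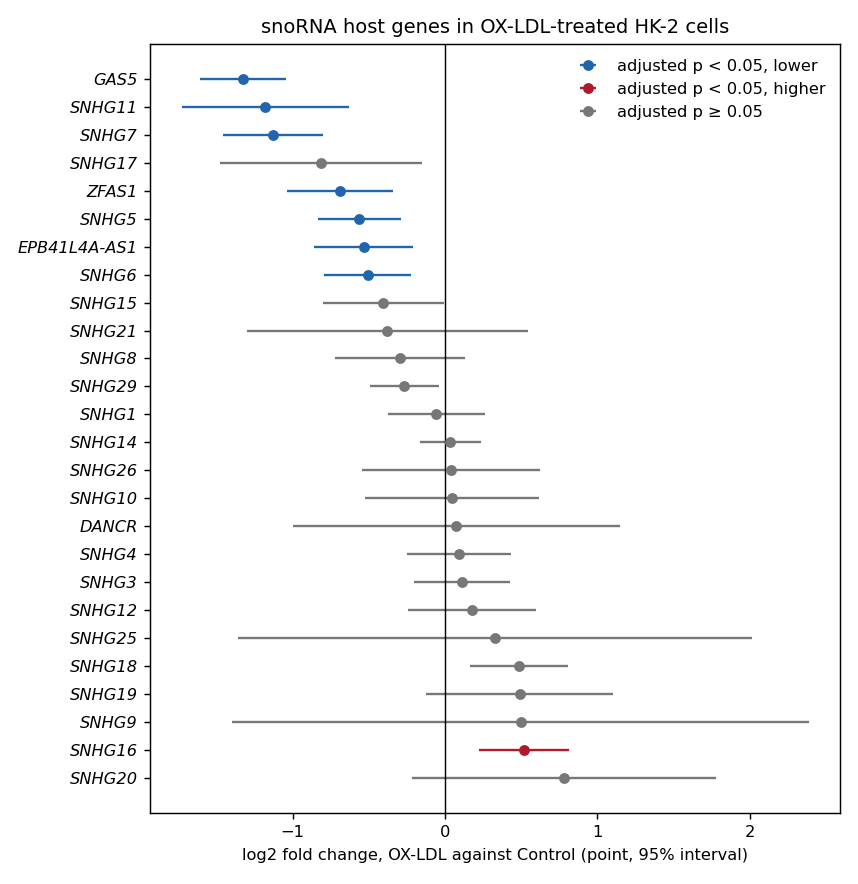
Log2 fold change of each of the 26 tested host genes in OX-LDL against Control (points) with the 95% interval from edgeR (lines), ordered from lowest to highest and coloured by call. GAS5, SNHG11 and SNHG7 lie below -1, 13 genes lie on each side of 0, and the widest intervals belong to SNHG9 and SNHG25.

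Although equal numbers of host genes lay on each side of 0, the summed level was lower in OX-LDL, as abundant hosts were among those called lower. The FPKM of the 29 host genes summed to 182, 232 and 220 in Control replicates 1 to 3 and to 158, 151 and 144 in OX-LDL replicates 1 to 3. Every OX-LDL library was below every Control library, and no test was run on this sum. GAS5 alone made up 43.7% of the fall in the mean sum, and without it the sum was 168.2 ± 19.4 in Control and 134.2 ± 5.82 in OX-LDL (SD, n = 3). The 7 lower genes together went from 120.0 ± 18.5 to 65.5 ± 1.94 FPKM, while the 18 genes with no call went from 87.1 ± 8.97 to 79.4 ± 4.78 FPKM, ranges that overlapped. Both sets were formed by the call in these same libraries, so the contrast between them follows from that choice and is no separate result. GAS5, SNHG6, SNHG29, ZFAS1 and SNHG1 held 69.4% of the Control sum and 60.9% of the OX-LDL sum.

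**Figure D2:**
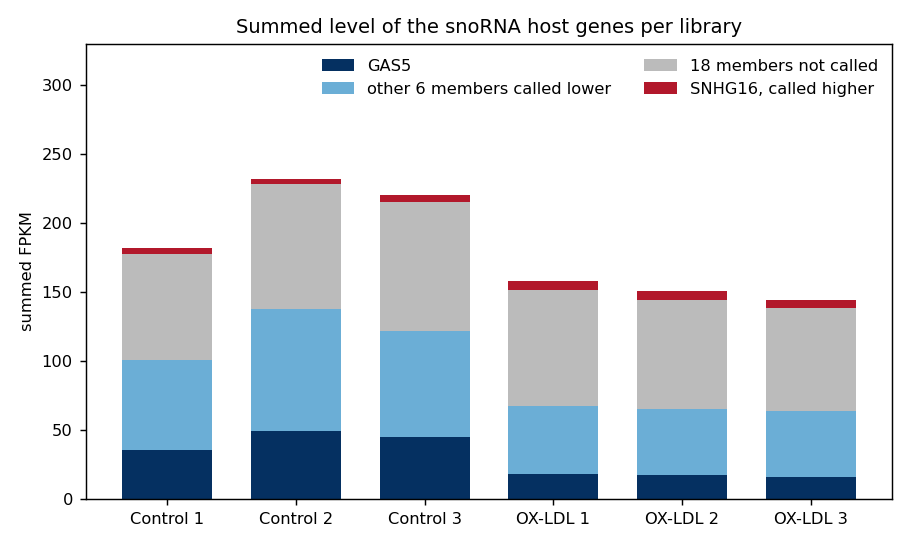
Summed FPKM of the host genes in each of the 6 libraries (bars), split into GAS5, the other 6 genes called lower, the 18 genes not called and SNHG16. The bars reach 182 to 232 in Control and 144 to 158 in OX-LDL. The parts of GAS5 and of the other lower genes are smaller in OX-LDL, as the split by call implies.

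GAS5 was the most abundant host in Control and had the lowest log2 fold change of the 26. It accumulates in growth-arrested cells, is a classic NMD target and holds more snoRNAs than any other host here except SNHG14. GAS5 (ENSG00000234741, chr1:173858559-173868882, minus strand) was at 35.8, 49.2 and 45.0 FPKM in Control and at 17.9, 17.1 and 15.7 FPKM in OX-LDL. All Control libraries were far above all OX-LDL libraries, and the spread within OX-LDL was small. The log2 fold change was -1.33 (SE 0.12, 95% interval -1.61 to -1.04, adjusted p = 0.0019, edgeR), which ranked 121 among all tested genes by p.

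ZFAS1, SNHG5 and SNHG6, which also hold box C/D snoRNAs, fell by a smaller amount. ZFAS1, a ribosome-associated transcript that starts beside ZNFX1 on the opposite strand and holds SNORD12, SNORD12B and SNORD12C, was at 21.0, 30.5 and 30.2 FPKM in Control and at 17.8, 15.5 and 16.1 FPKM in OX-LDL. Control replicate 1 was the lowest Control library and still above all OX-LDL libraries (log2 fold change -0.69, SE 0.15, adjusted p = 0.0246, edgeR). SNHG5, which holds SNORD50A and SNORD50B, was at 4.62, 5.18 and 5.04 FPKM in Control and at 3.32, 3.00 and 3.48 FPKM in OX-LDL. Its groups were also apart (log2 fold change -0.56, SE 0.11, adjusted p = 0.0218, edgeR).

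SNHG6, the host of SNORD87, was the second most abundant host in Control. It was at 30.3, 41.5 and 32.7 FPKM in Control and at 23.7, 24.6 and 23.5 FPKM in OX-LDL. The OX-LDL libraries lay within about 1 FPKM of each other and below all Control libraries, with Control replicate 2 the highest (log2 fold change -0.51, SE 0.12, adjusted p = 0.0345, edgeR).

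SNHG7, SNHG11 and EPB41L4A-AS1, which hold box H/ACA snoRNAs, were low in abundance and also fell. SNHG7, the host of SNORA17A and SNORA17B, was at 3.74, 4.76 and 3.92 FPKM in Control and at 1.99, 1.92 and 1.63 FPKM in OX-LDL (log2 fold change -1.13, SE 0.14, 95% interval -1.46 to -0.80, adjusted p = 0.0049, edgeR). SNHG11, the host of SNORA60 and SNORA71E, was at 2.23, 2.48 and 1.93 FPKM in Control and at 0.669, 1.04 and 1.10 FPKM in OX-LDL (log2 fold change -1.18, SE 0.23, 95% interval -1.73 to -0.63, adjusted p = 0.0195, edgeR). In both genes the highest OX-LDL library was far below the lowest Control library. EPB41L4A-AS1, the host of SNORA13, was at 2.91, 3.79 and 3.07 FPKM in Control and at 2.25, 2.22 and 2.12 FPKM in OX-LDL (log2 fold change -0.53, SE 0.14, adjusted p = 0.0435, edgeR). All 7 genes that were lower had their highest Control value in Control replicate 2, and 6 of them had their lowest in Control replicate 1.

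SNHG16 moved the other way. This host of SNORD1A, SNORD1B and SNORD1C was at 4.61, 3.71 and 4.90 FPKM in Control and at 6.46, 5.94 and 6.13 FPKM in OX-LDL. Every OX-LDL library was above every Control library (log2 fold change 0.52, SE 0.12, 95% interval 0.22 to 0.81, adjusted p = 0.0364, edgeR). A fold change above 2 or below 0.5 with a p under 0.05, a rule that the study states and that was applied here to the unadjusted p, was met by GAS5, SNHG11 and SNHG7 only, 3 of 26 genes where 6.36% of all tested genes met it.

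**Figure D3:**
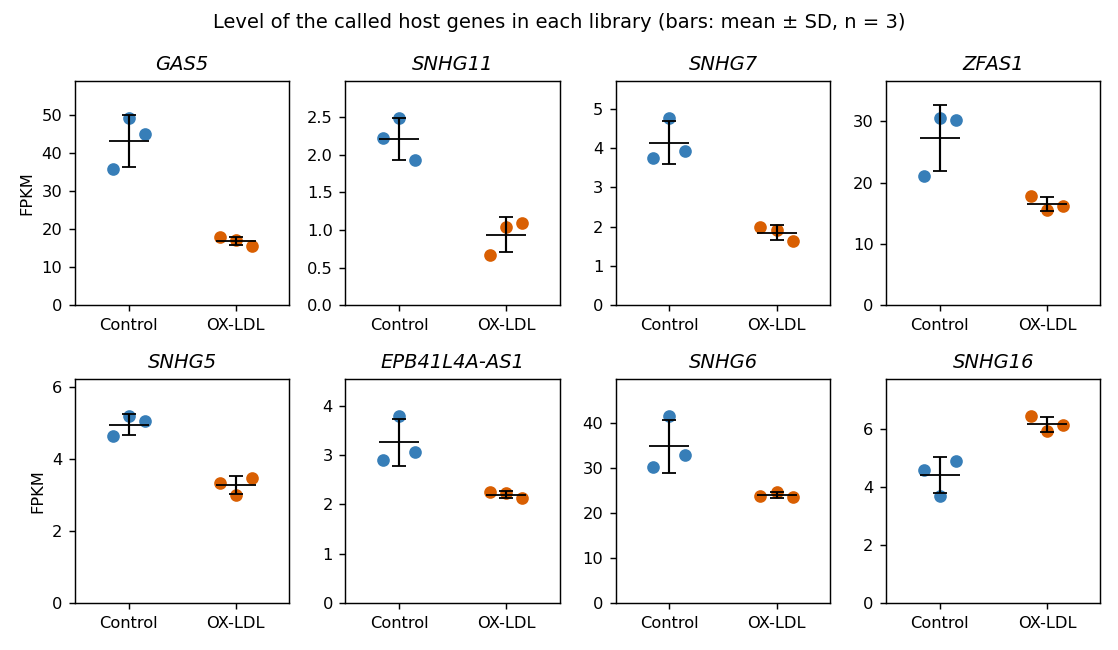
FPKM in each of the 3 Control and 3 OX-LDL libraries (points, left to right replicates 1 to 3) for the 8 host genes with an adjusted p under 0.05, with the mean (wide mark) and SD (capped line). In the 7 lower genes every OX-LDL point is below every Control point, and in SNHG16 every OX-LDL point is above.

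Without regard to the test, the groups did not overlap in 8 host genes that were lower in OX-LDL (20.5% of all tested genes) and in 3 that were higher (16.8% of all tested genes). SNHG29, also known as LRRC75A-AS1 and the host of SNORD49A, SNORD49B and SNORD65, was the eighth of the lower genes. It was at 27.6, 34.1 and 34.6 FPKM in Control and at 25.4, 26.9 and 26.0 FPKM in OX-LDL (log2 fold change -0.27, SE 0.10, adjusted p = 0.115, edgeR). With SNHG16, the higher genes were SNHG18 and SNHG19.

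SNHG18, the host of SNORD123, was at 2.81, 3.00 and 2.80 FPKM in Control and at 4.32, 3.90 and 3.58 FPKM in OX-LDL, and narrowly missed the threshold (log2 fold change 0.48, SE 0.13, adjusted p = 0.0559, edgeR). SNHG19, the host of SNORD60, was at 3.72, 2.71 and 3.83 FPKM in Control and at 5.11, 5.07 and 3.95 FPKM in OX-LDL (log2 fold change 0.49, SE 0.26, adjusted p = 0.257, edgeR). Its OX-LDL replicate 3 lay close to the Control values.

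Some hosts with no call had values that were spread widely within a group. SNHG17, the host of the SNORA71 family, was at 2.60, 5.52 and 3.82 FPKM in Control and at 2.64, 1.76 and 2.20 FPKM in OX-LDL (log2 fold change -0.82, 95% interval -1.48 to -0.15, adjusted p = 0.0998, edgeR). Control replicate 1 lay among the OX-LDL values, so the groups overlapped. SNHG20, the host of SCARNA16, was at 0.610, 0.244 and 0.212 FPKM in Control and at 0.734, 0.518 and 0.574 FPKM in OX-LDL (log2 fold change 0.78, 95% interval -0.22 to 1.78, adjusted p = 0.268, edgeR). Without Control replicate 1, the host gene SNHG17 had an adjusted p of 0.0485 and SNHG20 one of 0.0314, and DESeq2 on all 6 libraries called SNHG17 lower (log2 fold change -0.81, adjusted p = 0.0193).

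DANCR, a non-coding RNA known for holding back cell differentiation and the host of SNORA26, was at 3.02, 3.49 and 2.46 FPKM in Control and at 2.48, 5.33 and 1.41 FPKM in OX-LDL. OX-LDL replicate 2 was the highest of the 6 libraries and OX-LDL replicate 3 the lowest (log2 fold change 0.07, SE 0.45, adjusted p = 0.935, edgeR). SNHG15, the host of SNORA9, was at 4.68, 6.65 and 5.61 FPKM in Control and at 4.97, 3.79 and 3.73 FPKM in OX-LDL, with only OX-LDL replicate 1 inside the Control range (log2 fold change -0.41, adjusted p = 0.156, edgeR).

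Other hosts had narrower intervals that covered 0. SNHG1, the host of a long series of box C/D snoRNAs, was at 8.59, 8.84 and 10.3 FPKM in Control and at 10.1, 7.31 and 8.71 FPKM in OX-LDL (log2 fold change -0.06, 95% interval -0.38 to 0.26). SNHG3, which holds the SNORA73 snoRNAs of early ribosomal RNA processing, was at 7.38, 8.55 and 9.54 FPKM in Control and at 10.3, 8.78 and 7.85 FPKM in OX-LDL (log2 fold change 0.11, 95% interval -0.20 to 0.43). The groups of both genes overlapped throughout.

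SNHG14, the imprinted transcript of the Prader-Willi region that runs antisense to UBE3A, was near 1 FPKM in all libraries, from 0.998 to 1.02 FPKM in Control and from 0.915 to 1.09 FPKM in OX-LDL (log2 fold change 0.04, 95% interval -0.16 to 0.23). SNHG4, the host of the SNORA74 snoRNAs, was at 3.53, 3.47 and 4.75 FPKM in Control and at 4.15, 4.19 and 3.93 FPKM in OX-LDL (log2 fold change 0.09, 95% interval -0.25 to 0.44). SNHG8, the host of SNORA24, was at 6.17, 7.71 and 9.26 FPKM in Control and at 5.88, 5.72 and 6.79 FPKM in OX-LDL (log2 fold change -0.30, 95% interval -0.72 to 0.13). SNHG12, which holds snoRNAs of both classes, had a log2 fold change of 0.18 (95% interval -0.24 to 0.59).

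The remaining tested hosts were low. SNHG10, SNHG21, SNHG25, SNHG26 and SNHG9 had group means between 0.525 and 1.10 FPKM, and their intervals covered 0. SNHG22, the host of SCARNA17, had 0.0486 FPKM in Control and 0.0286 in OX-LDL and was not tested. SNHG27 had a count of 0 in all libraries, and SNHG28 was counted only in Control replicate 2, so neither was tested.

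Hosts of both snoRNA classes were found among the genes that fell and among those with no call. RefSeq (GRCh38.p14) places 11 snoRNA genes inside GAS5, 10 of box C/D and SNORA103 of box H/ACA. By that annotation the 7 lower hosts were 3 with box C/D only (ZFAS1, SNHG5, SNHG6), 3 with box H/ACA only (SNHG7, SNHG11, EPB41L4A-AS1) and GAS5 with both, and the 18 uncalled hosts were 6 with box C/D only, 7 with box H/ACA only, 2 with both and 3 with a scaRNA only (SNHG10, SNHG20 and SNHG21).

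The snoRNAs themselves were hardly measured. The deposited table lists 128 SNORD and SNORA genes inside 22 of the host genes on the same strand, 83 of them in SNHG14, and it counts none inside GAS5. Of the 45 outside SNHG14, 44 were intronic in at least 1 transcript of the host in GENCODE, and 20 had at most 4 counts, about 1 read pair, in every library. The highest counts were those of SNORA73B, inside SNHG3, counted 113, 142 and 110 times in the Control libraries and 139, 166 and 228 times in the OX-LDL libraries. SNORD22, inside SNHG1, had 205 counts in OX-LDL replicate 2 and at most 5 counts in each other library. None of the 43 tested snoRNA genes passed an adjusted p of 0.05 in edgeR, 2 had an unadjusted p under 0.05, and neither DESeq2 nor limma called any. Mature snoRNAs have no poly(A) tail, and many of these genes had counts too low to show a change, while SNORA73B had a log2 fold change of 0.59 with an SE of 0.23.

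Several host genes overlap other genes, and the sources used here do not give the strand setting of the counting. ZBTB37, which overlaps GAS5 on the opposite strand, was higher (log2 fold change 0.29, adjusted p = 0.0395, edgeR), opposite in sign to GAS5. ZNFX1, which overlaps ZFAS1 on the opposite strand, had a log2 fold change of -0.15 (adjusted p = 0.776), EPB41L4A, opposite to EPB41L4A-AS1, 0.20 (adjusted p = 0.655), and DIPK1B, opposite to SNHG7, -0.02 (adjusted p = 0.956). On the same strand, SNHG14 lies with SNRPN (log2 fold change -0.55, adjusted p = 0.0093, edgeR), SNHG20 with SEC14L1 (-0.90, adjusted p = 0.0103), SNHG3 with RCC1 (0.56, adjusted p = 0.153) and SNHG4 with MATR3, and these 4 hosts' values are uncertain because shared reads can be split between the genes.

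Genes of the NMD pathway were examined because several hosts are known NMD targets. Of 10 NMD factors, UPF2, SMG5 and SMG9 were lower, where 7.42% of all tested genes were lower, and none was higher. Of the 10 log2 fold changes 9 were below 0, as were 9822 of the 19510 over all tested genes, and their median was -0.21. UPF2, which bridges UPF1 to the exon junction complex, went from 17.5 to 12.8 FPKM (log2 fold change -0.42, adjusted p = 0.0096, edgeR), and SMG5, which acts on phosphorylated UPF1, went from 51.6 to 35.0 FPKM (log2 fold change -0.53, adjusted p = 0.0041, edgeR). UPF1, the central helicase, was not called (log2 fold change -0.12, adjusted p = 0.406). Of 6 genes of the exon junction complex or linked to NMD, only MAGOHB was called (16.7%, against 15.3% of all tested genes). MAGOHB was higher (log2 fold change 0.55, adjusted p = 0.0127, edgeR), where 7.91% of all tested genes were higher.

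Stress mRNAs known as NMD substrates were called in both directions. Of 7, ATF4, ATF3, DDIT3 and GADD45A were lower and GADD45B and TBL2 were higher, with GABARAPL1 not called, against 15.3% called of all tested genes. DDIT3, a transcription factor of the unfolded protein response, went from 85.2 to 13.3 FPKM (log2 fold change -2.64, SE 0.33, adjusted p = 0.0051, edgeR), while GADD45B rose from 3.74 to 7.54 FPKM (log2 fold change 1.04, SE 0.25, adjusted p = 0.0339, edgeR). ATF4, the translation-controlled regulator of the integrated stress response, went from 147 to 95.8 FPKM (log2 fold change -0.59, adjusted p = 0.0053, edgeR).

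The proteins that bind and assemble snoRNAs were mostly not called. None of the 4 box C/D core proteins (FBL, NOP56, NOP58, SNU13) or the 4 box H/ACA core proteins (DKC1, NHP2, NOP10, GAR1) passed the test, with log2 fold changes between -0.22 and 0.34. Of 11 assembly factors (9.09% called, against 15.3% of all tested genes), TGS1, which trimethylates the cap of small nuclear RNAs and of some snoRNAs, was lower (log2 fold change -0.37, adjusted p = 0.0242, edgeR). Of 15 translation factors and related genes with TOP mRNAs (13.3% called), EEF1A1 (log2 fold change -0.51, adjusted p = 0.0119, edgeR) and TPT1 (-0.62, adjusted p = 0.0154) were lower and none was higher.

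Protein-coding genes that hold snoRNA genes were called in both directions too. Of 137 tested, 37 were called (27.0%, against 15.3% of all tested genes), 14 higher and 23 lower, and their median log2 fold change was -0.06. They include 28 ribosomal protein genes, of which 4 were lower and none higher, with a median of -0.19. Of the other 109, 33 were called (30.3%), 14 higher and 19 lower, with a median of -0.0035. Of the 84 tested cytosolic ribosomal protein genes 7 were called (8.33%), RPS26 higher (log2 fold change 1.06) and 6 lower, and the median was -0.16. Of their log2 fold changes 68 were below 0, as were 9822 of the 19510 over all tested genes. The groups did not overlap in 29 that were lower (20.5% of all tested genes) and in 2 that were higher (16.8% of all tested genes). The coding hosts with the smallest p were IARS, an aminoacyl-tRNA synthetase (-1.19, adjusted p = 0.00042, edgeR), ZBED3 (-1.73, adjusted p = 0.0016), HSPA9, a mitochondrial chaperone (-0.77, adjusted p = 0.0031), and MAGED2 (0.58, adjusted p = 0.0033). Of 15 other tested hosts with no protein-coding transcript 2 were higher and 1 lower.

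**Figure D4:**
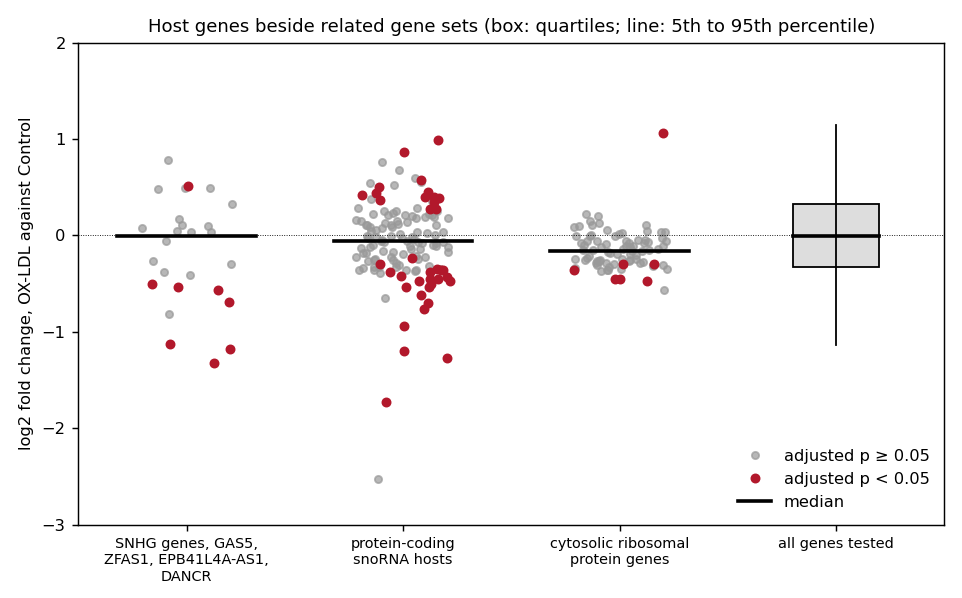
Log2 fold change in OX-LDL against Control of every tested host gene of the named set, of 137 protein-coding snoRNA hosts and of 84 cytosolic ribosomal protein genes (points, red where the adjusted p is under 0.05, black bar at the median), beside all 19510 tested genes (box of quartiles, line from the 5th to the 95th percentile). The medians are -0.01, -0.06, -0.16 and -0.0043 in that order, and called genes lie on both sides of 0 in each set. The protein-coding hosts and the ribosomal protein genes share 28 genes.

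The table lists some host genes under older names, and 4 of these now have an SNHG symbol. C6orf48, now SNHG32, was at 53.7, 81.4 and 72.4 FPKM in Control and at 28.9, 27.0 and 28.2 FPKM in OX-LDL, so that it was more abundant than GAS5 (log2 fold change -1.27, SE 0.14, adjusted p = 0.0040, edgeR). LINC00888, now SNHG33, was at 6.76, 6.98 and 7.27 FPKM in Control and at 4.18, 3.05 and 2.94 FPKM in OX-LDL (log2 fold change -1.01, SE 0.16, adjusted p = 0.0103, edgeR). In both genes the groups did not overlap. LINC02001, now SNHG30, and AC016708, now SNHG31, were not called. These 4 genes were chosen with their values in view, and with them 9 of 30 tested host genes were lower and 1 higher.

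GAS5 and SNHG7 kept their call under each of the 16 alternatives tried, with 6 libraries left out in turn among them. The other calls depended on 1 or more libraries. Without Control replicate 2, which had the highest Control value of all 7 lower genes, 2 host genes were lower. In that fit 1161 genes in all were called, against 2991 with all 6 libraries. The number of lower host genes was 3 when Control replicate 3 was left out (1993 genes called in all). It was also 3 without replicate 1 (1262 genes) or without replicate 3 (1163 genes) of OX-LDL. It was 4 without OX-LDL replicate 2, where 2943 genes in all were called. It was 7 without Control replicate 1 (1796 genes in all), where SNHG17 and SNHG29 took the place of SNHG11 and EPB41L4A-AS1. EPB41L4A-AS1 lost its call in all 6 of these fits (adjusted p 0.0669 to 0.136), and SNHG16 kept its call in 1 of them, without Control replicate 3.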

How the data were processed

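RNA-seq of HK-2 cells was analysed in 3 Control and 3 OX-LDL libraries, grouped by their labels. The labels do not say whether replicates were separate cultures, so p-values measure the spread between these samples. Per the labels, reads were processed with cutadapt 1.9, HISAT2 2.0.4 and StringTie 1.3.4d on GRCh38, and edgeR and DESeq2 are also named. The authors deposited whole-number estimated counts, not scaled for library size, and FPKM, scaled by the authors for transcript length and library size, with a count of 0 listed as 0.0001 FPKM. Fold changes and tests come from the estimated counts and levels from FPKM. Genes at exactly 4, 8 and 12 counts were in excess, from which about 4 counts per read pair were inferred. The libraries then held 15640337 to 19199402 read pairs. TMM factors (0.985 to 1.02), glmQLFit and glmQLFTest of edgeR 4.0.16 (R 4.3.3) were run on group alone over the 19510 genes that averaged 0.1 FPKM or more, with Benjamini-Hochberg adjustment. A standard error (SE) was obtained from each log2 fold change and its quasi-likelihood F. The fits were tested on simulated data. Alternatives were DESeq2 1.42.0, limma 3.58.1 on log2(FPKM + 0.1), + 1 or + 0.01, median-of-ratios or total-count scaling, no minimum or 1 FPKM, counts divided by 4, a replicate block and leaving out each library.

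Every gene of the rule is named, with at most 4 genes of each list and of each comparison set by smallest p, the genes that bear on an overlap, and the nested snoRNAs with the highest counts. Genes named beyond this rule (UPF1, GADD45B, TBL2, GABARAPL1, the core snoRNP proteins, the cell type markers and the hosts under older names) were chosen after their values were seen. The host genes and the lists were chosen with earlier results of these data known. Sequences come from GENCODE release 29 and the RefSeq tables, by symbol or Ensembl identifier. Of the host genes, 29 of 29 identifiers were in GENCODE and 20 had the same coordinates as in the table. Coordinates of genes are those of the table. The window of SNHG6 and those of SNHG9, SNHG15 and SNHG25 were not used here. A p from an exact permutation test of 3 against 3 cannot go below 0.1, so none was used. Items withheld from this text are not reported here.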

Additional observations from a re-analysis of the deposited data

How the results depend on the processing

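All 8 called host genes kept their direction in all 128 alternative values, and 35 of these lost the call. The FPKM groups of these genes did not overlap, so a refit or leaving out a library could hardly turn the direction. The kept direction therefore adds no support to the calls. The host genes called higher numbered 1 in the reported fit, 2 with DESeq2, with a minimum of 1 FPKM and with limma at each of the 3 pseudocounts (SNHG18 was the added gene), 0 without a minimum and 0 to 1 when a library was left out. Those called lower numbered 7, 8 with DESeq2, 6 without a minimum and 2 to 7 when a library was left out. The host genes past the fold and p rule numbered 3, 1 with limma on log2(FPKM + 1) and 2 to 5 when a library was left out. All genes called numbered 2991, 4430 with DESeq2, 2321 without a minimum and 1161 to 2943 when a library was left out. Of the genes in the functional lists 13 were called, 15 with DESeq2 and 8 to 12 when a library was left out. With the replicate number as a replicate block, 0 host genes were higher and 2 lower, GAS5 and SNHG7, and 1636 genes in all were called. To look for pairing, each gene's group mean was first subtracted from its log-scaled level in each library. The remaining deviations of same-numbered libraries, not their whole profiles, correlated by -0.041, -0.0031 and 0.0356, so the numbers gave no sign of pairing. By these deviations, 1 of 3 OX-LDL libraries correlated best with its own number. The added naming by current symbol gave 9 lower and 1 higher.

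Direction turned only in hosts with no call. SNHG1 ranged from -0.165 to 0.0537 on the log2 scale when a library was left out, SNHG14 from -0.0242 to 0.103, SNHG26 from -0.13 to 0.23, SNHG10 from -0.0912 to 0.203, DANCR from -0.59 to 0.42 and SNHG25 from -0.10 to 0.78. With limma at pseudocounts of 0.1 and 0.01, SNHG14 had -7.122e-05 and -0.00038 and SNHG26 had -0.0099 and -0.014. DANCR had -0.15, -0.0789 and -0.16 with limma at 0.1, 1 and 0.01 and -0.12 with the replicate block, and SNHG25 had -0.0060 with limma at 0.01. The cause of these differences was not tested, and leaving out a library also lowers the number of samples. Depth limits the lowest hosts: SNHG25 and SNHG9 had at most 49 counts in any library, and a count of 12 or less was taken as not detected.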
